A study of Mus musculus with 8 samples.

Results

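The genes described here are 42 genes of G2 phase and mitosis, the last steps of the cell cycle, listed by name: cyclins and Cdk1, spindle checkpoint genes, mitotic kinases, centromere proteins, spindle motors and chromosome proteins. Each gene was read from the probe set annotated to that gene alone with the highest mean over all arrays. This gave a value for 40 of the 42, out of 12393 genes with a value in all; Ccnb1 and Cdca8 have none here. Of the 40, 37 passed a filter on low signal and were tested, out of 8003 genes tested. Cdc25c, Nek2 and Cenpe lay under it.

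The samples were cytotoxic CD8 T cells of OT-1 mice, whose T cell receptor is a transgene that recognises a peptide of ovalbumin. Once activated, they were kept for 4 h at 30 T cells per target with ID8, an ovarian cancer line from mouse that had been given the peptide, and were then recovered with magnets. PD-L1 is the protein on tumour cells that engages PD-1, an inhibitory receptor of T cells. In 1 group the targets overexpressed PD-L1, and in the other they were depleted of it. The T cells of 4 mice, A to D, went to both kinds of target, so each group has 4 arrays and every mouse has 1 array per group. All 8 samples share the OT-1 receptor, the peptide and the prior activation. The labels give neither the age of the mice nor how the ID8 lines were made, and T cells without targets were not analysed here.

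Cells that commit to mitosis raise cyclin A and cyclin B, which activate the kinase Cdk1. Cdk1, Plk1 and the Aurora kinases then drive chromosome condensation and spindle assembly, and the spindle checkpoint holds back the anaphase-promoting complex until every chromosome is attached. Much of this machinery is made anew in each cycle, so in T cells, which divide rapidly after activation, its messenger RNAs are commonly read as a measure of how much of the population is cycling. In a bulk sample, fewer cycling cells and less RNA per cycling cell cannot be told apart.

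Promoters of these genes are known for 2 short elements near the start of transcription: the CCAAT box bound by the factor NF-Y, and the cell cycle homology region (CHR), spelled TTTGAA or TTCGAA, through which the DREAM and MYB-MuvB complexes silence the gene in resting cells and switch it on in G2. RefSeq promoter windows on GRCm38.p6, from 250 bases before to 50 after the annotated start, were matched by symbol for 35 of the 42 members and searched on both strands. The CHR spellings differ from each other by 1 letter and neither contains CCAAT, but neighbouring matches may share letters at their ends; TTCGAA reads the same on either strand. The 4 stretches printed here come from members with 1 annotated start and the strongest differences between mice described later. These stretches were chosen after the matches were seen, first for holding both elements and then for the number of matches. Each covers the 110 bases before the start, 5′ to 3′ along the gene, with the matches in capitals (ATTGG is CCAAT and TTCAAA is TTTGAA on the other strand).
Ube2c, chr2:164769819-164769928, + strand: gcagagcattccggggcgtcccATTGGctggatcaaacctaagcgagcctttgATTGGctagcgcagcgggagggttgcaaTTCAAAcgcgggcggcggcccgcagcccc
Cdc20, chr4:118437344-118437453, - strand: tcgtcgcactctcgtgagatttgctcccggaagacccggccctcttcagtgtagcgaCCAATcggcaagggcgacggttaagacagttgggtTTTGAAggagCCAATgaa
Kif11, chr19:37376272-37376381, + strand: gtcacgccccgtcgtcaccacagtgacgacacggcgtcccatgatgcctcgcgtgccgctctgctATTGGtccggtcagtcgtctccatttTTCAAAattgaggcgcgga
Ccnb2, chr9:70421555-70421664, - strand: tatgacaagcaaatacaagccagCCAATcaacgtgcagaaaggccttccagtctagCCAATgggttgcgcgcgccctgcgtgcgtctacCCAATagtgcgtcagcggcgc

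Within the stretch of Ube2c, CCAAT matches began at positions -88 and -57 from the start and the CHR spelling at -29. In Ccnb2, 3 CCAAT matches began at -87, -54 and -21. Its CHR spellings began at -167 and at 5 after the start, both outside the stretch shown. The 35 matched members have 38 annotated starts. Of these windows, 84.2% held CCAAT, against 37.4% of all 32851 windows, and 60.5% held it 2 or more times, against 11.7%. A CHR spelling was in 81.6% of member windows and 19.2% of all windows, and both kinds of element were in 76.3% and 7.53%. The 4 windows of Birc5, Mad2l1, Nusap1 and Pttg1 held none of these letters. A match is a string of letters and no evidence of binding.

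**Figure D1:**
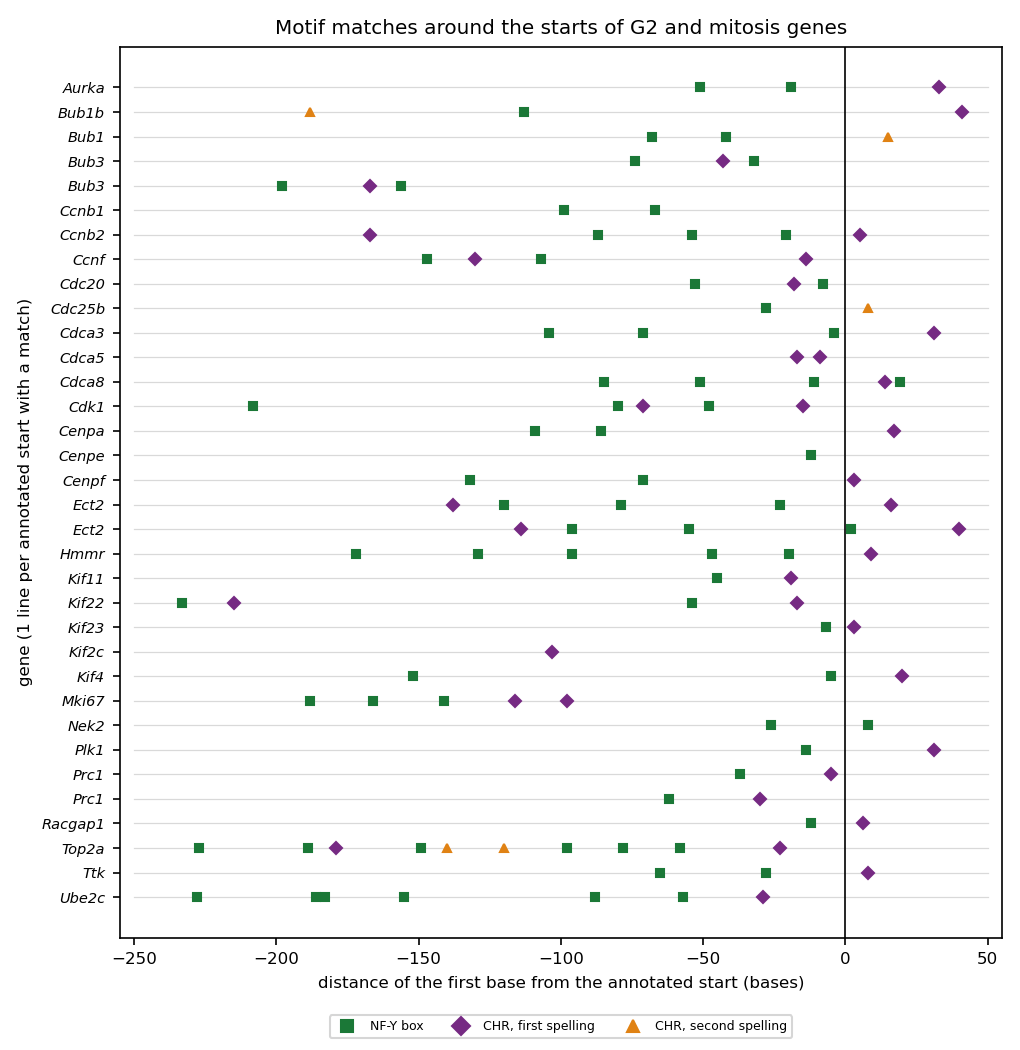
Distance from the annotated start, in bases, of each match to the NF-Y box (squares) and to the 2 CHR spellings (diamonds and triangles) in member promoters, 1 line per annotated start with a match. Nearly all NF-Y boxes lie before the start, while CHR spellings lie on both sides of it.

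The arrays gave log2 values from 3.60 to 15.24. Their distributions were nearly equal as deposited, so a change shared by most genes could not be seen. Defining T cell genes were high: Cd3d averaged 13.99, Cd8a 12.66 and Gzmb 14.63, and 12 of 13 CD8 T cell markers were tested. Markers of the tumour line gave signal too, with 12 of the 25 that have a probe set tested, and mouse B stood apart in them. Their mean level with PD-L1-overexpressing targets was 8.47 in A, 8.87 in C and 8.75 in D, in each case above the mean with PD-L1-depleted targets (7.82, 8.37 and 8.19). Mouse B ran the other way, with 7.89 and 8.76. The labels do not settle whether the 2 samples of mouse B were exchanged, which was not tested; an exchange would turn the sign of each of its differences between targets. The tests between targets are therefore also given without mouse B. Markers of other cells were counted among those with a probe set. Of these, 3 of 13 macrophage and dendritic cell genes and 2 of 5 CD4 and NK cell genes were tested. Among erythroid and neutrophil genes 0 of 6 passed the filter, and among B cell genes 1 of 9 (Ighm).

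The comparison of targets asks whether the amount of PD-L1 on the tumour cell is followed by a difference in T cell RNA. No G2 or mitosis gene passed the test: 0 of 37 were called higher and 0 lower (limma with the mouse as a block, Benjamini-Hochberg adjusted p = 0.9995 for each), as among all 8003 genes, where 0% were called in either direction. The unadjusted p was under 0.05 for 3 members and for 228 of all genes. The differences, overexpressing minus depleted, ran from -0.112 to 0.0757 on the log2 scale with a median of -0.00778, beside 0.00327 over all genes tested. In this fit, with mouse B as labelled, the 95% intervals of all 37 lay between -0.213 and 0.173. The widest of them reached a change of 1.16-fold, a limit that does not cover the fit without mouse B. Without mouse B, limma called 0 members either, where 1.9% of all genes were called higher and 0.3% lower. The members' median was then -0.0408, with 29 of 37 below 0 (54.5% of all genes), and 7 of 37 members had an unadjusted p under 0.05 (12.4% of all genes).

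Mki67, which codes for the proliferation antigen Ki-67 that coats mitotic chromosomes, was the member with the smallest p upwards. It read 10.94, 10.79, 11.05 and 11.02 in mice A to D with PD-L1-overexpressing targets and 10.88, 10.77, 10.98 and 10.87 with PD-L1-depleted targets. It stood above in every mouse. The groups overlapped, at 10.95 ± 0.117 and 10.88 ± 0.0874 (SD, n = 4), a spread that includes the differences between mice. With the mouse as a block, the difference was 0.0757 (SE 0.0311, limma unadjusted p = 0.0378). Downwards, the smallest p was that of Kif22, a motor that pushes chromosome arms toward the spindle equator, at -0.112 (SE 0.0353, unadjusted p = 0.0114). Kif22 read 10.66, 10.45, 10.62 and 10.66 with PD-L1-overexpressing and 10.67, 10.64, 10.73 and 10.79 with PD-L1-depleted targets. Kif2c, which takes microtubules apart at the kinetochore, read 8.55, 8.55, 8.78 and 8.72 with PD-L1-overexpressing and 8.69, 8.55, 8.96 and 8.84 with PD-L1-depleted targets. Its difference was -0.111 (SE 0.0452, unadjusted p = 0.0363). For Bub1, a checkpoint kinase, the difference was -0.0826 (SE 0.0381). None of these 4 genes passed after adjustment. Without mouse B the differences were 0.0934 for Mki67 (SE 0.0336), -0.0865 for Kif22 (SE 0.0360), -0.146 for Kif2c (SE 0.0474) and -0.0889 for Bub1 (SE 0.0430). The smallest p downwards was then that of Pttg1, securin, which holds separase inactive, at -0.0814 (SE 0.0260, unadjusted p = 0.00579, limma adjusted p = 0.149), followed by Kif2c (unadjusted p = 0.00647, adjusted p = 0.155). For Kif22 and Kif2c the probe sets of the gene differed in sign in this comparison, and for 10 of the 14 members with several usable probe sets they did. Of the 37 members, 1 was higher in all 4 mice (Mki67) and 3 were lower in all 4 (Kif22, Kif2c and Bub1); 10.5% of all genes tested had the same direction in all 4. Over mice A, C and D alone, 2 members were higher in each (Mki67 and Cenpa) and 12 lower, beside 14.8% and 18.1% of all genes.

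Within single mice as labelled, the members leaned one way in mouse B and the other in mouse C. With PD-L1-overexpressing targets 29 of 37 members stood above their value with PD-L1-depleted targets in mouse B, at a median of 0.0761, while 31 of 37 stood below in mouse C, at a median of -0.0836. Over all genes tested, 61.3% stood above in mouse B and 60.1% below in mouse C. In mice A and D 15 and 17 of 37 stood above, with medians of -0.0154 and -0.00364. The median over all genes tested was 0.0280 in mouse B and -0.0203 in mouse C. The tumour markers ran the opposite way within these mice, with median differences of -0.752 in mouse B and 0.301 in mouse C, and 0.662 and 0.371 in A and D; their part in the members' values was not tested. Of the S phase genes, 41 of 41 stood above in mouse B and 33 of 41 below in mouse C. With the labels of mouse B exchanged, its medians would have the signs seen in mouse C.

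**Figure D2:**
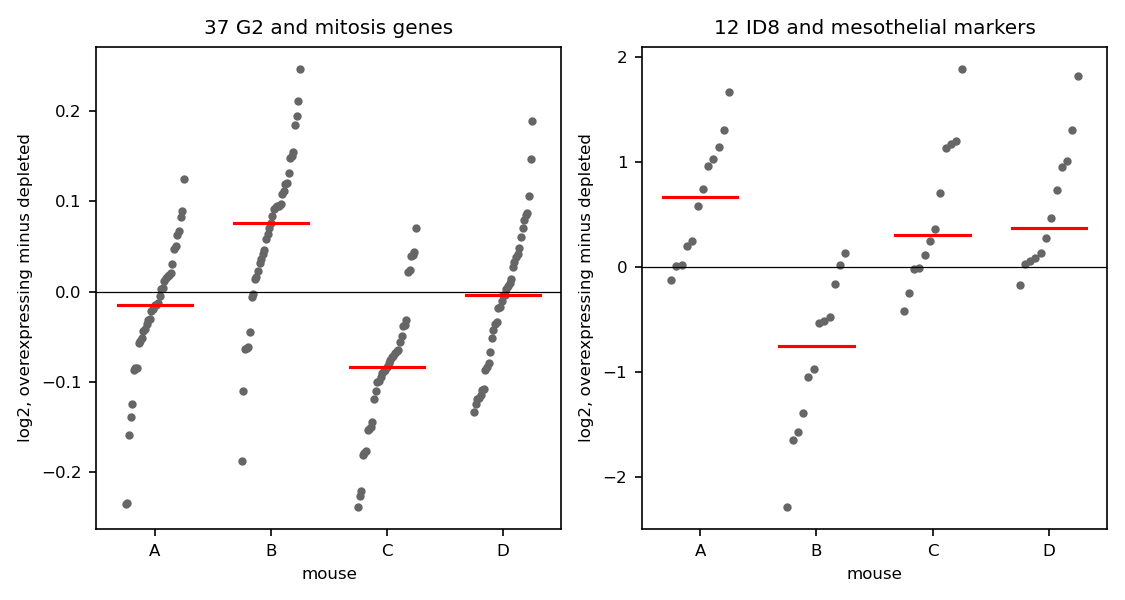
Log2 expression with PD-L1-overexpressing minus that with PD-L1-depleted targets within each mouse, 1 point per gene and a red line at the median, for 37 G2 and mitosis genes (left) and 12 markers of the tumour line (right); the vertical scales differ. The members' median is 0.0761 in mouse B and -0.0836 in mouse C, and the marker medians have the opposite sign in both mice.

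The comparison of mice measures how far these genes differ between animals whichever target their cells met. The members were lowest in mouse B and highest in mouse C. By limma's F test, 27 of 37 members differed between mice, where 29.3% of all genes did. The highest mouse stood over the lowest by 1.12-fold to 1.37-fold, with a median of 1.25-fold, beside 1.14-fold over all genes. Without mouse A 15 members passed this test, and without mouse C 16. The 2 arrays of a mouse are cultures of the same T cells, so these p-values measure the spread between cultures, and the labels do not say what else differed between the animals.

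**Figure D3:**
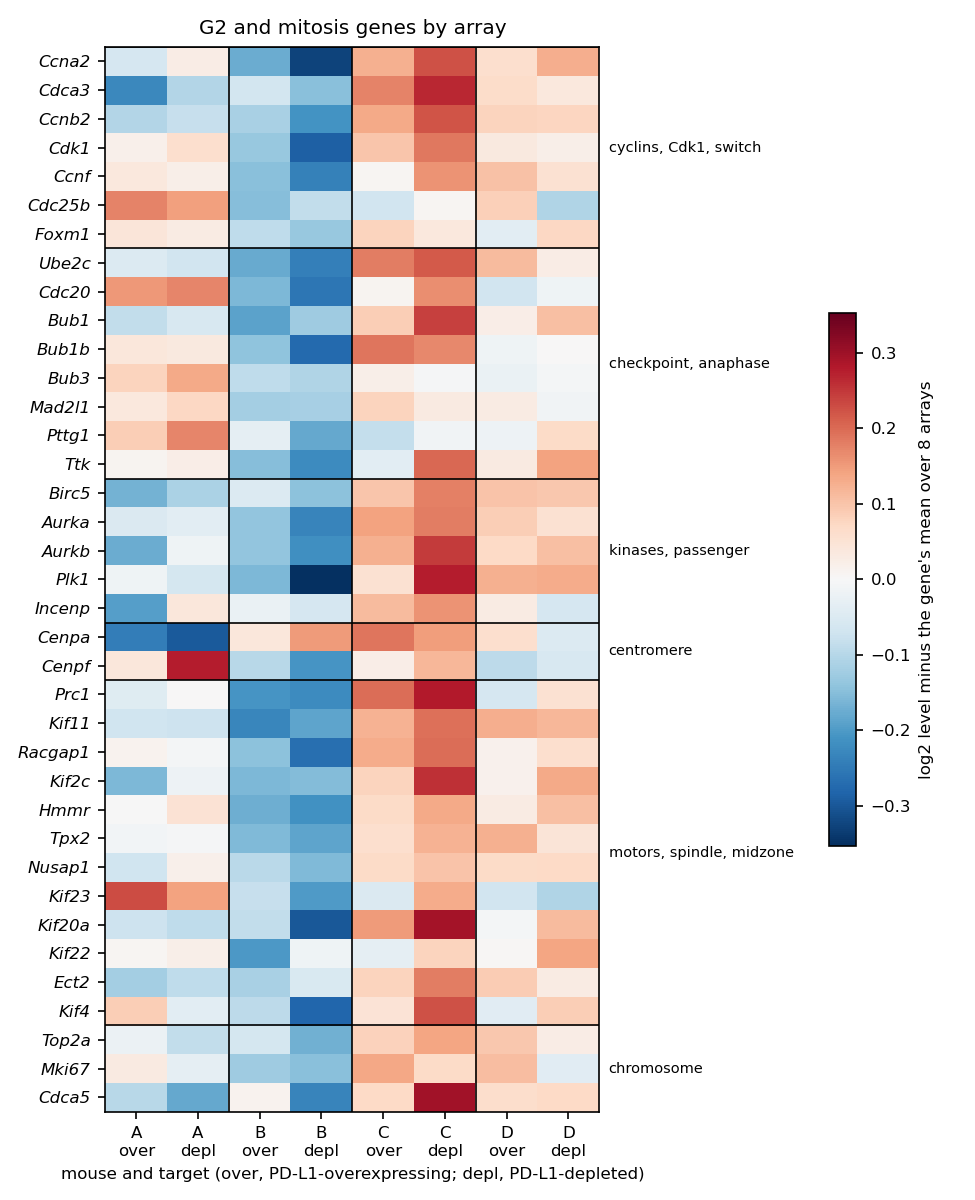
Log2 level of 37 G2 and mitosis genes on each of 8 arrays minus the gene's mean over the 8, in rows grouped by role and columns by mouse and target. Blue is below and red above the mean. The columns of mouse B are mostly blue and those of mouse C mostly red. In mouse A, Cdc20, Bub3, Pttg1, Kif23, Cenpf and Cdc25b were called higher, and Cenpa, Cdca3 and Birc5 lower.

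The order of the animals was shared by most members. Mouse B had the lowest mean for 31 of 37 members and the highest for 0, where it was lowest for 26.3% of all genes tested. Mouse C had the highest mean for 29 of 37, beside 18.6% of all genes. For 23 of 37 members both arrays of mouse B lay below the other 6, which held for 7.83% of all genes, and for 11 of 37 both arrays of mouse C lay above, which held for 4.99%. The opposite held for 0 members in mouse B and 0 in mouse C (8.28% and 9.92% of all genes). Both arrays of mouse A were above the other 6 for 4 members and below for 1 (22.3% and 13.9% of all genes), and those of mouse D for 0 and 0 (7.43% and 6.16%).

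Against the mean of the other 3 mice, 21 of 37 members were lower in mouse B and 0 higher, where 2.96% of all genes were called lower and 6.3% higher. The median difference was -0.210 over the 37 members and -0.00646 over all genes. Among arrays labelled as PD-L1-depleted targets it was -0.276 and among those labelled as PD-L1-overexpressing targets -0.152. This split would change if the 2 samples of mouse B were exchanged, and the gap between its values was not tested. At an unadjusted p under 0.05, 33 members were lower in mouse B and 1 higher, beside 12.2% and 14.1% of all genes. The count of 21 was 7 without mouse C (6 lower and 1 higher), 12 without mouse D, 10 without the PD-L1-depleted array of mouse B and 32 without its PD-L1-overexpressing array, with a single array assumed to vary as the others do; it was 7 with array weights. In mouse C, 16 of 37 members were higher and 0 lower, where 3.09% of all genes were called higher and 5.35% lower. At an unadjusted p under 0.05 these were 27 and 0 members, beside 9.07% and 16.9% of all genes. The median was 0.182 over the members and -0.0175 over all genes. The count was 5 without mouse A, 0 without the PD-L1-depleted array of mouse C and 1 without the other, and 9 with limma's variances fitted without a trend. Each mouse is part of the mean that the others are set against, so these comparisons are not independent of each other.

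Of 7 genes of the cyclins and the Cdk1 switch, 4 differed between mice (29.3% of all genes). In mouse B 3 were lower and in mouse C 4 were higher, beside 2.96% and 3.09% of all genes. Ccna2, cyclin A2, read 10.41 and 10.26 on the arrays of mouse B (PD-L1-overexpressing, then PD-L1-depleted targets), 10.53 and 10.62 in A, 10.71 and 10.81 in C and 10.65 and 10.72 in D. Both arrays of mouse B were thus below all others, at -0.33 against the other mice (SE 0.0515, adjusted p = 0.00503), a level 1.26-fold lower. Cdk1, the kinase that cyclins A and B activate, read 10.10 and 9.94 in mouse B, 10.25 and 10.29 in A, 10.33 and 10.42 in C and 10.27 and 10.25 in D. It was lower in mouse B by a similar amount, -0.28 (SE 0.0498, adjusted p = 0.00913). Ccnb2, cyclin B2, read 9.65 and 9.55 in mouse B, 9.66 and 9.68 in A, 9.89 and 9.98 in C and 9.84 and 9.84 in D, and was lower in B (-0.22, SE 0.0459). All 3 were higher in mouse C, Ccna2 by 0.23, Cdk1 by 0.19 and Ccnb2 by 0.24. Cdca3, which helps destroy the mitotic inhibitor Wee1, read 9.91 and 9.83 in mouse B, 9.75 and 9.87 in A, 10.15 and 10.24 in C and 10.04 and 10.01 in D. It was higher in mouse C by 0.29 (SE 0.0493) and did not pass in mouse B (-0.14), where it overlapped mouse A. Foxm1, the transcription factor that drives G2 genes, read 8.20 and 8.15 in mouse B, 8.33 and 8.31 in A, 8.36 and 8.32 in C and 8.25 and 8.36 in D, and did not pass the F test (adjusted p = 0.214). Nor did Ccnf, a cyclin-like subunit of a ubiquitin ligase, or Cdc25b, the phosphatase that releases Cdk1 (adjusted p = 0.0910 and 0.0928).

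Of 8 genes of the spindle checkpoint and of anaphase, 7 differed between mice (29.3% of all genes). In mouse B 6 were lower (2.96% of all genes). Ube2c, the ubiquitin-conjugating enzyme of the anaphase-promoting complex, had the smallest F p of all members. It read 11.33 and 11.27 in mouse B, 11.46 and 11.44 in A, 11.62 and 11.54 in D and 11.69 and 11.73 in C. The 2 arrays of each mouse thus lay together and no mouse overlapped another, at -0.28 in mouse B and 0.26 in mouse C (SE 0.0335 for each, adjusted p = 0.00128 and 0.00186). Bub1 read 9.24 and 9.30 in mouse B, 9.34 and 9.37 in A, 9.52 and 9.67 in C and 9.45 and 9.54 in D, and was lower in B (-0.21) and higher in C by 0.22 (SE 0.0440 for each). Bub1b, its partner in the checkpoint complex, was lower in B (-0.28) and higher in C by 0.24. Mad2l1, the checkpoint protein that binds Cdc20, was lower in B (-0.16). Ttk, the kinase that starts checkpoint signalling, did not pass in any mouse.

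Cdc20 is the activator of the anaphase-promoting complex, and Bub3 the adaptor that brings Bub1 to kinetochores. On the probe sets used, both were low in mouse B but had their highest level in mouse A. Cdc20 read 10.14 and 10.05 in mouse B, 10.45 and 10.47 in A, 10.31 and 10.46 in C and 10.23 and 10.29 in D. Bub3 read 11.94 and 11.93 in mouse B, 12.11 and 12.17 in A, 12.05 and 12.03 in C and 12.01 and 12.03 in D. Both were lower in mouse B, Cdc20 at -0.28 and Bub3 at -0.13, and higher in mouse A, by 0.216 and 0.142. Pttg1 was highest in mouse A too, by 0.173 over the others, and did not pass in B (-0.14).

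**Figure D4:**
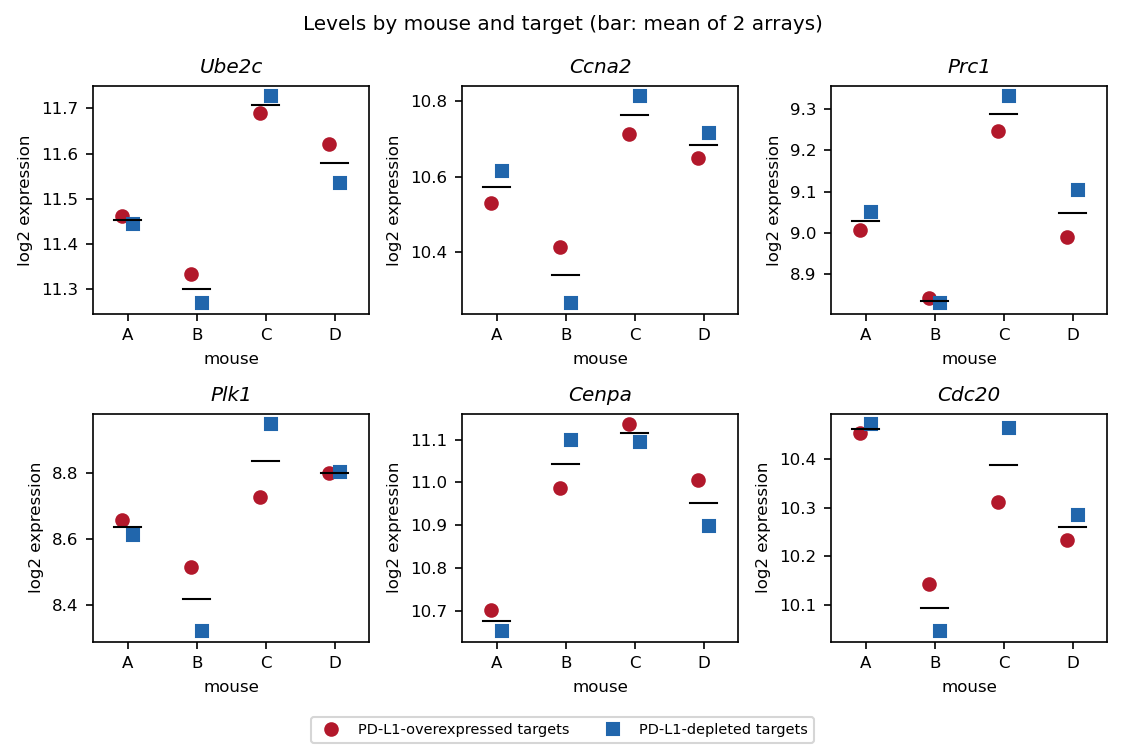
Log2 expression of 6 members in each mouse, with circles for PD-L1-overexpressing and squares for PD-L1-depleted targets and a bar at the mean of the 2 arrays. Mouse B is lowest for 5 of the 6, with Cenpa the exception, and mouse A is highest for Cdc20; the vertical scales differ and do not start at 0.

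Among the mitotic kinases, Plk1, which acts from spindle assembly to cell division, read 8.52 and 8.32 in mouse B, 8.66 and 8.61 in A, 8.73 and 8.95 in C and 8.80 and 8.80 in D. Its difference in mouse B, -0.34 (SE 0.0737, adjusted p = 0.0226), was the lowest estimate among the members, 1.27-fold under the other mice. Aurka, the kinase of the spindle poles, read 8.26 and 8.16 in mouse B, 8.34 and 8.36 in A, 8.54 and 8.58 in C and 8.48 and 8.45 in D. Aurkb is the kinase of the chromosomal passenger complex, which corrects faulty attachments. It read 8.36 and 8.28 in mouse B, 8.32 and 8.48 in A, 8.62 and 8.74 in C and 8.57 and 8.60 in D, so that mice A and B overlapped. Both kinases were lower in mouse B (-0.25 and -0.24) and higher in mouse C (0.22 and 0.25).

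The other passenger genes did not pass in mouse B. Birc5, survivin, read 10.25 and 10.16 there, 10.14 and 10.19 in A, 10.40 and 10.48 in C and 10.40 and 10.40 in D, and was lower in mouse A (-0.185) and higher in mouse C (0.18). Incenp, the scaffold of the complex, did not pass the F test on the probe set used (adjusted p = 0.128). With every probe set tested, another usable set of Incenp passed it (adjusted p = 0.0258). That set was higher in mouse C (0.242) and lower in mouse A (-0.155), and did not pass in B (-0.0866). The remaining usable set did not pass the F test (adjusted p = 0.0845).

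Cenpa, the histone that marks centromeres, was low in another mouse. It read 10.99 and 11.10 in mouse B, 11.14 and 11.10 in C, 11.00 and 10.90 in D and 10.70 and 10.65 in A. Mouse A was therefore the low animal, at -0.360 against the others (SE 0.0439), and Cenpa was the only one of 37 members whose estimate in mouse B was above 0 (0.128, adjusted p = 0.108). Cenpf, a kinetochore protein of late G2, read 8.31 to 8.80 and did not pass the F test (adjusted p = 0.0563), although it was higher in mouse A (0.211). Cenpe, the kinetochore motor, read 4.31 to 4.65, under the filter of 6.87.

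Motor and midzone genes, which build and split the spindle, held the largest share of members. Of these, 12 were tested and 9 differed between mice (29.3% of all genes). In mouse B 7 were lower and in mouse C 4 were higher, beside 2.96% and 3.09% of all genes. Prc1, which bundles midzone microtubules, read 8.84 and 8.83 in mouse B, 9.01 and 9.05 in A, 9.25 and 9.33 in C and 8.99 and 9.10 in D. It had the widest gap between mice among the members, 1.37-fold, at -0.29 in mouse B and 0.32 in mouse C (SE 0.0469 for each). Its other usable probe set read -0.145 in mouse B and 0.0828 in mouse C and passed in neither (F adjusted p = 0.283), the largest range between probe sets in mouse C, 0.234. Kif11, the motor that pushes spindle poles apart, read 8.06 and 8.11 in mouse B, 8.22 and 8.22 in A, 8.42 and 8.49 in C and 8.42 and 8.41 in D, with -0.28 in mouse B and 0.21 in mouse C (SE 0.0518 for each). With every probe set tested, the other usable sets of Kif11 did not pass the F test (adjusted p = 0.159 and 0.0586). They read -0.206 and -0.272 in mouse B and 0.102 and 0.141 in mouse C, and passed in neither. Racgap1, part of the midzone complex that triggers furrow formation, was lower in mouse B (-0.27), and so was Kif2c (-0.21). Another set of each passed in B with every set tested (adjusted p = 0.0445 and 0.0420). A further set of Kif2c did not (adjusted p = 0.0810). Hmmr (-0.26), Tpx2 (-0.23) and Nusap1 (-0.17), microtubule-binding proteins of the spindle, were lower in B and did not pass in C. On their other usable probe sets, Hmmr and Tpx2 were also below 0 in B but did not pass. The limma adjusted p was 0.0837 to 0.408 for Hmmr and 0.114 for Tpx2. Kif20a, a midzone motor, had a low estimate in mouse B, -0.26, and a high one in C, 0.30, and passed neither (adjusted p = 0.0908 and 0.0612). Kif23, the motor partner of Racgap1, was highest in mouse A (9.02 and 8.93), where it was higher by 0.248. Kif4, Ect2 and Kif22 did not pass the F test.

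Of the chromosome proteins, Mki67 was lower in mouse B (-0.18, SE 0.0359, adjusted p = 0.0153), and its estimate in mouse C, 0.14, missed the threshold (adjusted p = 0.0513). Top2a, which untangles DNA before chromosomes separate, read 11.62 and 11.51 in mouse B, 11.66 and 11.59 in A, 11.76 and 11.82 in C and 11.77 and 11.70 in D. It was lower in B (-0.15) and higher in C by 0.15 (SE 0.0363 for each), although the PD-L1-overexpressing array of B lay above the PD-L1-depleted array of A. Cdca5, sororin, which protects cohesin, did not pass the F test (adjusted p = 0.0666).

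**Figure D5:**
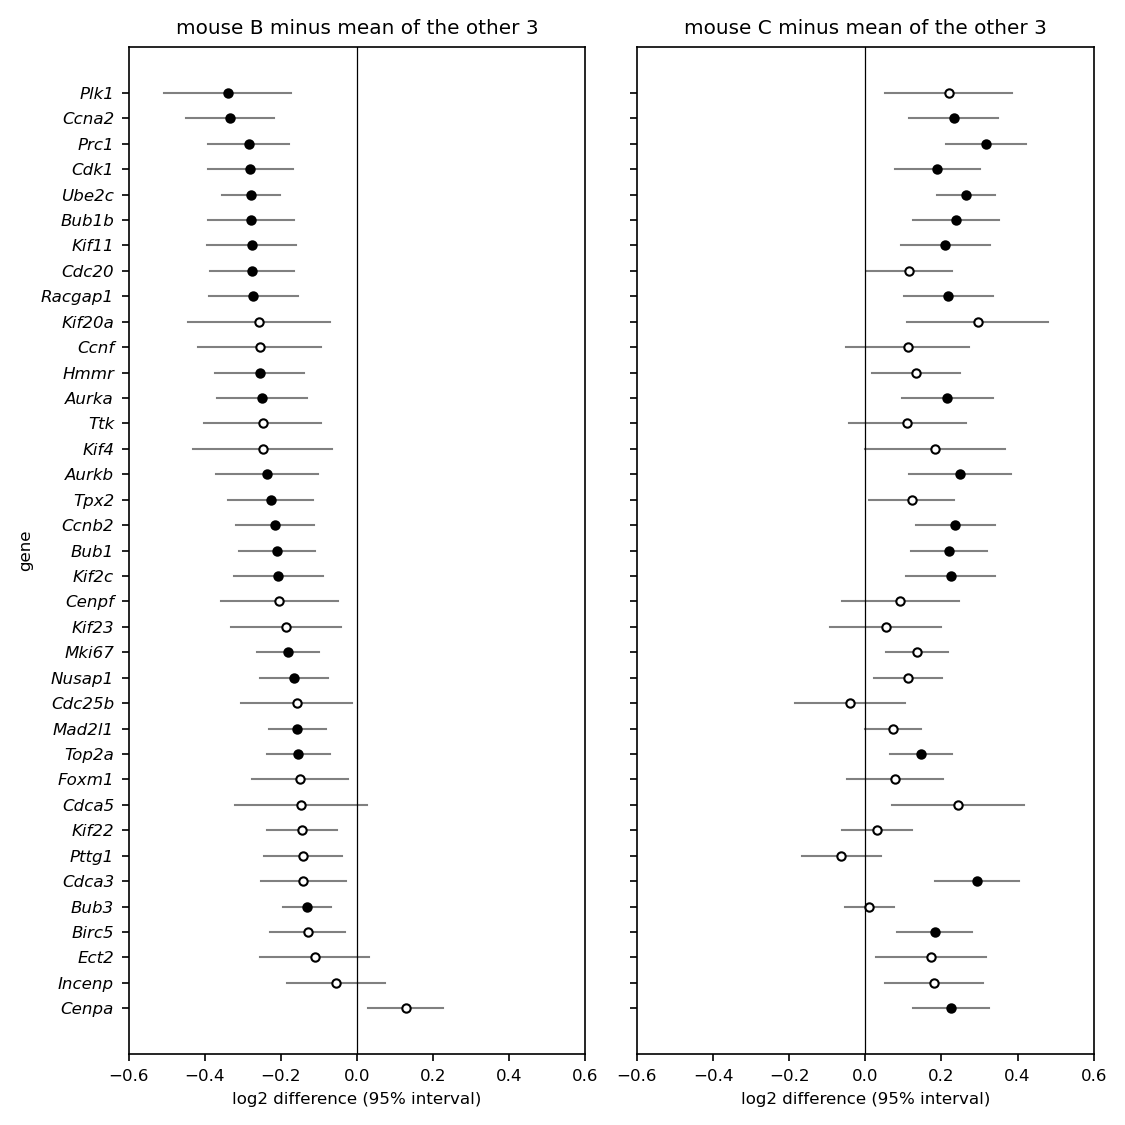
Log2 difference of mouse B (left) and mouse C (right) from the mean of the other 3 mice for each of 37 members, with its 95% interval; filled points passed at an adjusted p under 0.05. In mouse B 21 points are filled, all left of 0, and in mouse C 16 are filled, all right of 0.

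Fewer of these genes were called in mice A and D. In mouse A, 6 of 37 members were higher (Cdc20, Bub3, Pttg1, Kif23, Cenpf and Cdc25b) and 3 lower (Cenpa, Cdca3 and Birc5), where 18.1% and 12.7% of all genes were called, and the members' median was -0.0218. A second probe set of Bub3 read -0.050 in this comparison, against 0.142 for the one used. The count of 9 was 25 without mouse B (6 higher, 19 lower), 3 without either array of mouse A and 5 where probe sets were averaged per gene. At an unadjusted p under 0.05, 6 members were higher and 6 lower in mouse A, beside 24.8% and 16.7% of all genes. In mouse D, limma called 0 of 37 higher and 0 lower, where 4.56% and 4.09% of all genes were called, with a median of 0.0781. At an unadjusted p under 0.05, 8 members were higher and 0 lower, beside 11.9% and 11.7% of all genes. Without mouse C 8 were called higher, without mouse B 3 lower, and with array weights 3 were called. Several probe sets passed the filter for 14 members. Their estimates had the same sign in all 14 in mouse B and in mouse C, but differed in sign for 6 in mouse A and 4 in mouse D.

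Genes around the members were counted in the same way. Of 21 other kinetochore genes tested, 7 were lower in mouse B and 0 higher, beside 2.96% and 6.3% of all genes. They included Spc25 (-0.385), a subunit of the complex that holds microtubules, Ska2 (-0.29), which steadies that hold, and Sgo1 (-0.24), which protects cohesion at the centromere. In mouse C 1 was higher (Sgo1, 0.27) and 0 lower, beside 3.09% and 5.35% of all genes. Of 15 cohesin and condensin genes, 2 were lower in B, the condensin core subunits Smc2 (-0.19) and Smc4 (-0.125), and 0 higher, and in mouse C 1 was higher (Ncaph, another condensin subunit, 0.17). Of 15 genes of the anaphase-promoting complex, 0 were called in B or C, and 1, Cdc16, passed the F test (29.3% of all genes). The medians of these lists in mouse B were -0.161, -0.0541 and -0.0337, beside -0.210 for the members.

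Of 41 S phase genes tested, 8 were lower in mouse B and 0 higher (2.96% and 6.3% of all genes), with a median of -0.0974. In mouse C 3 were higher and 1 lower (3.09% and 5.35% of all genes). Tk1 (0.26), thymidine kinase of the S phase, Cdt1 (0.21), which licenses replication origins, and Orc6 (0.20) were higher. Pole (-0.21), a replicative polymerase, was lower. In mouse A 11 were higher and 4 lower, beside 18.1% and 12.7% of all genes. Pold2 (0.26), a polymerase subunit, was among the higher, and Tk1 (-0.48) and Cdt1 (-0.41) among the lower. Of 16 regulators that act on cell cycle promoters, 1 was lower in B (Tfdp1, the E2F partner, -0.135), 0 were higher and 0 were called in C. Mybl2, the activating subunit of MYB-MuvB, and E2f1 did not pass the F test (adjusted p = 0.317 and 0.362).

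Of 21 brakes on the cell cycle, 5 were higher in mouse B and 0 lower (6.3% and 2.96% of all genes), with a median of 0.109. These included Klf2, a quiescence factor of T cells (1.32), the Cdk inhibitor Cdkn1b (0.26) and the antiproliferative Btg2 (0.24), and the other two were Gadd45b (0.16) and Gadd45g (0.22). In mouse C 5 were higher and 2 lower, beside 3.09% and 5.35% of all genes. Btg2 (0.19) and the Cdk inhibitor Cdkn2a (0.64) were among the higher. In mouse A 2 were higher and 9 lower (18.1% and 12.7% of all genes), with Cdkn2a at -1.18 and Klf2 at -1.12. Cdkn1a, a Cdk inhibitor, did not pass in mouse B (0.033), and Wee1, the kinase that holds Cdk1 inactive, did not pass the F test (adjusted p = 0.225).

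MHC class II genes present antigen and are not defining genes of CD8 T cells. All 5 tested were higher in mouse B, with H2-Aa at 2.51 and Cd74 at 0.41, and their mean level was 10.75 and 10.65 on its arrays, 10.16 and 10.16 in D, 9.32 and 9.41 in C and 9.24 and 9.28 in A. In mouse B, 2 of the 12 CD8 T cell markers were higher and 2 lower, beside 6.3% and 2.96% of all genes. Cd247 and Thy1 were higher, Prf1 and Lat lower, and the median of these markers was 0.00137. Of the 12 tumour markers 1 was higher in B (Epcam, 0.41) and 0 lower, with a median of -0.158, and in mouse C 1 was higher (Cav1) and the median was 0.360. Of 9 B cell genes with a probe set, the 8 other than Ighm read 5.35 to 6.82 on all arrays, under the filter. The tested macrophage and dendritic cell genes (Cd68, Csf1r and Flt3) and CD4 and NK cell genes (Cd4 and Zbtb7b) were not called in mouse B. Of these genes only Cd68 was called in another mouse, higher in C (0.465) and lower in A (-0.336). Ighm was higher in mouse B (0.185) and in D (0.453), and lower in A (-0.653). The part of these groups in the members' differences between mice was not tested.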

How the data were processed

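RNA of 8 samples was labelled with biotin for an Affymetrix 3' expression array, per the labels' protocols. The authors deposited 1 log2 value per probe set and array; that scale is inferred from their range, and the probe summary and normalisation are not given in the sources used here. Of 22690 probe sets, 64 controls were left out and 20380 of the rest had 1 gene symbol. Testing was limited to genes whose mean reached 6.87 (percentile 40 of the probe sets). The fit was limma 3.58.1 in R 4.3.3 (mouse and target as terms, eBayes with a trend, two-sided), adjusted over 8003 genes by Benjamini-Hochberg at 0.05. Mice are paired by the animal named in the titles and in the series design; deviations of an animal's arrays from the group means correlated at 0.824, 0.159, 0.610 and 0.635 in mice A to D. The fit was tested on simulated data. With 4 arrays per group, precision is limited by their number. Members, gene lists and the comparison by mouse were chosen with earlier results of these data known. Any member may be named; values on every array are given for a fixed set covering each role and for those with the smallest p between targets (3 each way) or between mice (8), and up to 3 genes per list, with Mybl2, E2f1, Cdkn1a, Cdkn1b and Wee1. Pathway genes beyond that rule (Orc6, Pole, Gadd45b and Gadd45g) and the 4 promoters were chosen after their values were seen. The table held 0 columns of other samples.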

Additional observations from a re-analysis of the deposited data

Results flagged for a closer look

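Within each group of 4 arrays, every tested member was examined for a single array lying apart, taking its distance to the nearest value as a share of the whole range. This gave 74 sets of values, in which chance alone would mark about 3.7 (1 in 20). The 1 marked was Kif23, where mouse A with PD-L1-overexpressing targets read 9.02 and the other mice 8.71 to 8.74, a share of 0.907.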

How the results depend on the processing

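The comparison of targets called 0 members under every alternative run: a fit with no replicate block (0), a random effect of mouse, median centring or quantile normalisation, no filter or a stricter one, the mean of probe sets, every probe set, other variance settings, array weights and leaving out each mouse. Between mice, leaving out 1 mouse gave 15 to 24 members in place of 27. In mouse B, array weights gave 7 in place of 21, and leaving out a mouse or one of its own arrays 7 to 32. In mouse C, eBayes without a trend gave 9 in place of 16, and leaving out a mouse or array 0 to 17. In mouse A, the mean of probe sets gave 5 in place of 9, and leaving out a mouse or array 3 to 25. In mouse D, array weights gave 3 in place of 0, and leaving out a mouse or array 0 to 8. Fewer arrays remain in the last kind of alternative; the cause of the other changes was not tested. Of 257 values of single members in mouse B under alternatives, 198 stayed on their side of the threshold, 49 lost and 10 gained a call, and 0 called values changed sign. Low signal left Cdc25c, Nek2 and Cenpe untested in the fits reported.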
